A study of Mus musculus with 20 samples.

Results

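The Acsm genes encode the medium-chain acyl-CoA synthetases, and 4 of them (Acsm1, Acsm2, Acsm3 and Acsm5) were taken by symbol from a table of 48440 genes. They were chosen by the level of Acsm5, which had earlier been seen to be lower in KO fat than in WT fat, with no such difference in liver. The KO to WT values of these genes are therefore given as a description, without a test. Gonadal fat pads and livers of C57BL/6 mice of 2 genotypes were profiled by RNA sequencing. Mice labelled AdEpsKO, described by the submitters as deficient in protein kinase C epsilon, are called KO, and the others WT. No source used here spells that label out, so the cells that lost the kinase are not known, and KO liver means liver from mice with that label. All mice of both genotypes ate a high fat diet for 1 week and were fasted for 6 h, and each of the 4 groups (WT fat, KO fat, WT liver and KO liver) held 5 libraries. The labels give neither age nor sex.

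Medium-chain acyl-CoA synthetases sit in the mitochondrial matrix and join a fatty acid of medium length to coenzyme A, at the cost of ATP. The thioester formed can enter beta-oxidation, and some members also activate benzoate and salicylate for conjugation with glycine, a detoxification route of liver and kidney. Acsm1 was described as a butyryl-CoA synthetase of liver mitochondria, Acsm2 is known as a kidney tubule gene, and Acsm3 was first studied as a gene raised in hypertensive rats. Less is known of Acsm5.

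The members lie side by side on chromosome 7 of GRCm38, all protein coding and all on the plus strand, within 268 kb. In order along the chromosome, Acsm5 (ENSMUSG00000030972) spans 119519463 to 119545551 and Acsm2 (ENSMUSG00000030945) 119554340 to 119600690. Acsm1 (ENSMUSG00000033533) spans 119607026 to 119662515 and Acsm3 (ENSMUSG00000030935) 119760923 to 119787513. Acsm4 (ENSMUSG00000047026), the remaining gene with this family name, lies between the last pair and had 1 count in 1 KO fat library and 0 in all others.

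The promoters of the 3 members with more than traces of RNA are shown because these neighbours differ in where they were expressed. Each is the 250 bases before the start site in RefSeq's GRCm38.p6 table, on the plus strand, at chr7:119617562-119617811 (Acsm1), chr7:119760673-119760922 (Acsm3) and chr7:119526015-119526264 (Acsm5). The RefSeq starts of Acsm1 and Acsm5 lie inside the gene spans given above. Capitals mark the matches to the motifs searched.
Acsm1: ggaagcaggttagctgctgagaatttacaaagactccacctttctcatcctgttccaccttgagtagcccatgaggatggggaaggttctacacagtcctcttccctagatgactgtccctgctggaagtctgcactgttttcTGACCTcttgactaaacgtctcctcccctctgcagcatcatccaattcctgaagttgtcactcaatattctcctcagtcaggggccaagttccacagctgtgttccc
Acsm3: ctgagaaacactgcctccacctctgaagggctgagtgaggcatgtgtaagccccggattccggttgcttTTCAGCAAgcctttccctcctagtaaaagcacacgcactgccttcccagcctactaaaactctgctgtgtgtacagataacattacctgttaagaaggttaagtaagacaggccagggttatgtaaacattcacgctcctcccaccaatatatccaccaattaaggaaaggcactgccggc
Acsm5: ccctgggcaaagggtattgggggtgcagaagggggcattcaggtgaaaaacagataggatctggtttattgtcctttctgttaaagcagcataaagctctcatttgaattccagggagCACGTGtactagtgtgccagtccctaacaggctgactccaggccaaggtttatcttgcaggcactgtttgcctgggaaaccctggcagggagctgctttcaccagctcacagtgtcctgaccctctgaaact
The motifs searched, on both strands, were AGGTCA (a nuclear receptor half-site), TTNNGCAA (bound by C/EBP factors), CACGTG (an E-box), GTTAAT (known as the HNF1 half-site) and the core promoter motif TATAAA. Acsm1 held the first, read on the minus strand as TGACCT at 107 to 102 bases before its start, and 14% of 32851 promoters hold it. Acsm3 held TTCAGCAA at 181 to 174 bases before its start, a form found in 9.56% of promoters. Acsm5 held CACGTG at 132 to 127 bases before its start, as do 6.02% of promoters. Acsm2 held ATTAAC (6.43% of promoters hold this motif) and TATAAA (12.4%) before the first of its start sites. No match overlapped another, and each is a description of the letters only.

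Fat libraries held between 12880933 and 17276907 expected counts, and liver libraries between 13836370 and 20784145. Levels are in CPM, counts relative to library size, scaled by TMM over all libraries, and levels are compared between genes only as RPKM, which divides by the length of the longest coding transcript. Prkce, the targeted gene, was measured at 22.5 ± 4.07 CPM in KO fat against 36.4 ± 10.2 in WT fat, and at 15.4 ± 3.57 in KO liver against 19.7 ± 4.89 in WT liver (SD, n = 5). Some fat libraries held transcripts of other tissues. WT fat 4 and KO fat 3 held hepatocyte transcripts, with Alb (albumin) at 462 and 438 CPM over plain library sizes against 13.7 to 73.2 in the other fat libraries. Macrophage markers were high in KO fat 3, KO fat 4 and WT fat 3, with summed levels of 988 to 1460 CPM against 269 to 627 elsewhere in fat. Bladder epithelium markers summed to 1563 CPM in KO fat 2 and to at most 28.9 in any other fat library. Skeletal muscle markers summed to 633 CPM in WT fat 2, 497 in KO fat 2 and 301 in WT fat 3, and to 14.7 to 185 elsewhere in fat. Adipoq, the defining adipocyte marker, was at 1528 to 4957 CPM in fat and at most 4.43 in liver, and the labelled tissues were thus separate in this marker. Pck1, in the same list of 10 adipocyte markers, was not separate, at 1615 to 3192 CPM in fat and 1772 to 4360 in liver. The list summed to 24995 to 42819 CPM in fat and 1936 to 4565 in liver. Among defining kidney tubule markers, Slc34a1, Kap and Umod were at 0.311 CPM or less in every library.

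In liver, Acsm1 was the most abundant member, Acsm5 and Acsm3 followed, and Acsm2 was barely detected. In fat, Acsm3 led, Acsm5 came next, and the other members were at or near 0. The pattern across the 20 libraries is shown in the plot of all members by group.

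**Figure D1:**
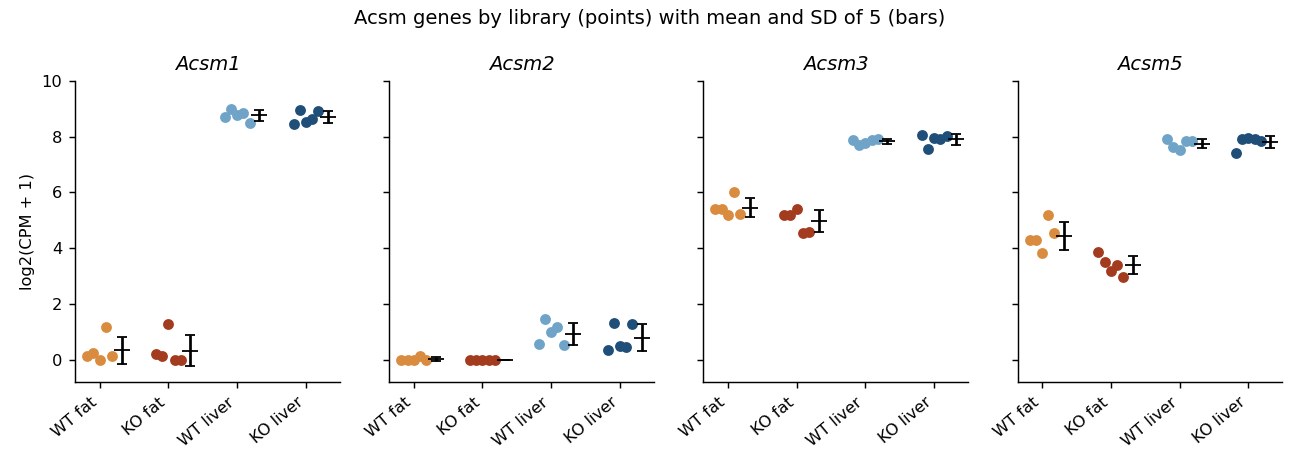
Level of each Acsm gene in every library, as log2(CPM + 1) on the vertical axis, for the 4 groups on the horizontal axis; points are libraries and bars give mean and SD of 5. Acsm1, Acsm3 and Acsm5 are all higher in liver than in fat, and the Acsm5 points of KO fat lie mostly below those of WT fat.

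Acsm1, the butyryl-CoA synthetase, was measured at 421, 511, 442, 461 and 356 CPM in WT liver 1 to 5. In KO liver 1 to 5 it was at 355, 492, 372, 394 and 479 CPM. The ranges of the genotypes overlapped almost fully. Per length, Acsm1 reached 210.4 ± 27.2 RPKM in WT liver and 201 ± 30.2 in KO liver, which placed it 414th and 433rd among the 21509 and 21877 genes with a count above 0. The KO to WT ratio from the edgeR fit was 0.949.

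Acsm5 was measured at 241, 197, 184, 232 and 228 CPM in WT liver 1 to 5. In KO liver 1 to 5 it was at 169, 239, 248, 241 and 228 CPM. KO liver 1 was the lowest of the 10 liver libraries, and the others of both genotypes lay together. The KO to WT ratio was 1.03.

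Acsm3 was measured at 234, 209.7, 218, 237 and 241 CPM in WT liver 1 to 5. In KO liver 1 to 5 it was at 269, 189.9, 245, 242 and 257 CPM. KO liver held both the lowest and the highest value, so the genotypes overlapped, and the ratio was 1.05. Per length, Acsm5 (72.6 ± 8.25 RPKM) and Acsm3 (69.2 ± 4.14) in WT liver did not differ beyond their spread, nor did they in KO liver (75.5 ± 10.7 and 73 ± 9.17). With merged exons as the length the gap was wider, at 57 ± 6.48 and 46.2 ± 2.76 RPKM in WT liver and 59.2 ± 8.4 and 48.7 ± 6.12 in KO liver, and the ranges only just met in WT. Acsm1 lay above both, with separate ranges, in each genotype.

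Acsm2, the kidney gene of the family, had 5 to 23 counts per library in WT liver and 4 to 20 in KO liver. These are 0.968 ± 0.539 and 0.8 ± 0.622 CPM, and a depth of this size gives little precision. Of its 50-base windows, 0.485% also occur in other genes on the same strand. The KO to WT ratio in liver was 0.823, with a 95% interval of 0.376 to 1.8. Over all genes, the edgeR test called 1 of 13298 in liver, which is 0.00752%. Without the adjustment for many tests, 1745 genes (13.1%) had p under 0.05, and DESeq2 called 137. The ranges were separate for 1.07% of genes with KO liver lower and for 1.77% with KO liver higher, and for 0 of the 4 members.

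In fat, Acsm5 was at 18.5, 18.7, 13.3, 35.5 and 22.4 CPM in WT 1 to 5. In KO fat 1 to 5 it was at 13.5, 10.4, 8.18, 9.64 and 6.85 CPM. KO fat 1 lay just above WT fat 3, and otherwise every KO library was below every WT library. Over plain library sizes the highest KO value was 18.1 CPM and the lowest WT value 19.3. The share of all genes with separate ranges was counted on the TMM scale only, so this gap has no background beside it. Means were 9.71 ± 2.5 and 21.7 ± 8.39 CPM, and the KO to WT ratio from the fit was 0.447 (log2 difference -1.16, SE 0.26). In bulk tissue, fewer cells of a type and less RNA per cell cannot be told apart.

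Acsm3 in fat was at 41.9, 41.4, 35.8, 64.2 and 36.8 CPM in WT 1 to 5. In KO fat 1 to 5 it was at 35.4, 35.9, 41.4, 22.2 and 22.7 CPM. KO fat 1, 4 and 5 lay below all WT libraries, the first of them only just, while KO fat 2 and 3 lay within the WT range. Means were 31.6 ± 8.62 and 44 ± 11.6 CPM, with a ratio of 0.715 (log2 difference -0.48, SE 0.22). The KO effect in fat minus that in liver was -1.21 (SE 0.29) on the log2 scale for Acsm5 and -0.56 (SE 0.24) for Acsm3. These differences rest on the values that chose the genes and were not tested.

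**Figure D2:**
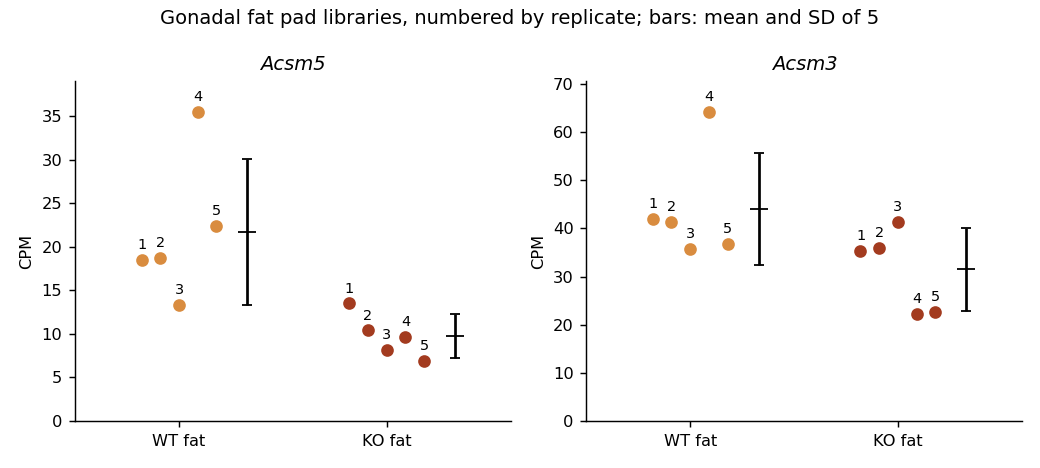
Acsm5 (left) and Acsm3 (right) in each gonadal fat pad library, as CPM on a linear axis from 0; points are numbered by replicate and bars give mean and SD of 5. WT fat 4 is the highest library for both genes, and the Acsm5 ranges touch at 13.5 CPM in KO fat 1 and 13.3 in WT fat 3.

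Across all genes in fat, edgeR called 0 of 14707 between KO and WT (0%), with 1048 (7.13%) at unadjusted p under 0.05. DESeq2 called 13 and limma-voom 0. For 0.639% of tested genes the KO fat libraries all lay below the WT ones, and for 0.626% they all lay above. No Acsm gene was among either on the TMM scale. For the KO effect in fat minus that in liver, edgeR called 0 of 15652 genes (0%), with 839 at unadjusted p under 0.05, and DESeq2 called 2.

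Adipocyte markers also had lower levels in KO fat than in WT fat. Of the 10 genes in that list 9 had a lower mean in KO fat, with a summed level of 24995 to 35485 CPM in KO and 30710 to 42819 in WT over plain library sizes, and none was at 0. Stromal markers had lower means in KO for 6 of 6 genes, with sums of 3522 to 6703 CPM in KO and 3372 to 10484 in WT, the highest in WT fat 3. By median, Col1a1 (635 CPM in KO, 625 in WT) and Dpt (407 and 394) were higher in KO. Pdgfra, Dcn, Col3a1 and Lum were lower in KO by median too. Erythroid markers had lower means for 5 of 5, with sums of 369 to 1286 against 464 to 3137 CPM. Their part in the Acsm5 result was not tested, but Acsm5 can be given per adipocyte transcript. Per 10000 counts of the adipocyte list, Acsm5 had 5.63, 7.14, 6.3, 11.7 and 7.81 counts in WT fat 1 to 5. In KO fat 1 to 5 it had 5.09, 5.79, 4.36, 4.07 and 2.84. KO fat 2 lay just above WT fat 1 and the rest were separate, with a ratio of means of 0.574. On the same scale Acsm3 had 14.8 ± 5.9 in KO and 15.9 ± 3.45 in WT, a ratio of 0.934 with wide overlap.

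Leaving out the fat libraries with hepatocyte transcripts gave an Acsm5 ratio of 0.553 (10.1 ± 2.72 CPM in KO and 18.2 ± 3.75 in WT, n = 4 each). Leaving out those high in macrophage transcripts gave 0.432. For Acsm3 the ratios were 0.746 and 0.682. Leaving out each library in turn gave Acsm5 ratios between 0.403 and 0.533, the last without WT fat 4.

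Most Acsm1 counts in fat came from the same pair of libraries that held albumin transcripts. WT fat 4 had 27 of the 35 counts in WT fat and KO fat 3 had 27 of the 32 in KO fat, and the other fat libraries had 0 to 4. At the ratio of Acsm1 to Alb in liver of the same genotype, the Alb in WT fat 4 would come with 1.43 CPM of Acsm1, and 1.7 was measured. In KO fat 3 it would come with 1.5 CPM, and 2.1 was measured. The same reckoning gave 1.45% of the Acsm5 of WT fat 4 and 6.76% of that of KO fat 3, and 0.849% and 1.42% of their Acsm3. Alb may give too low a share. It was at 0.455% of its liver level in WT fat 4 and 0.491% in KO fat 3. The medians over the 10 hepatocyte markers were 0.491% and 0.666%. Acsm2 had 2 counts in WT fat, both in WT fat 4, and 0 in KO fat. Neither Acsm1 nor Acsm2 passed the filter on low counts in fat, so 2 of the 4 members have no fitted KO to WT value there.

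**Figure D3:**
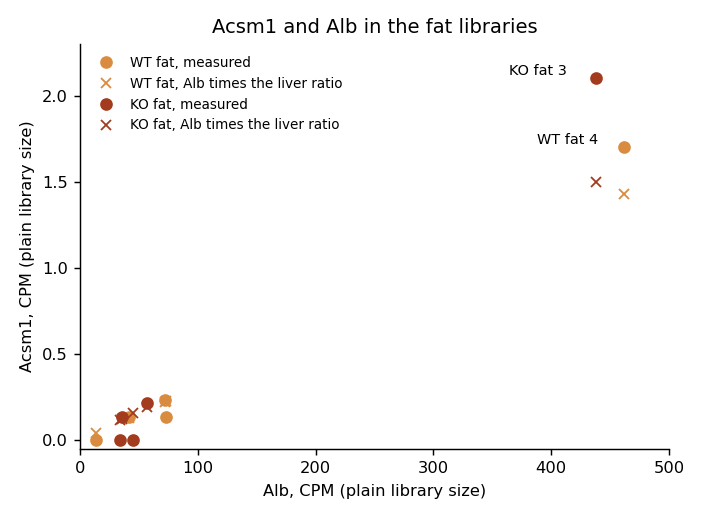
Acsm1 against Alb in the 10 fat libraries, both as CPM over plain library sizes; filled points are measured and crosses give the Acsm1 that the Alb would carry at the liver ratio. WT fat 4 and KO fat 3 stand apart at 462 and 438 CPM of Alb, and measured Acsm1 lies above the cross in both.

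The fat to liver contrast was not itself used to choose the genes, but the values of Acsm5 were, so only Acsm3 is given a test. Acsm3 was 5.14-fold higher in WT liver than in WT fat (95% interval 4.04 to 6.55), and edgeR gave an adjusted p of 6.56e-08. In KO mice it was 7.44-fold higher in liver (5.53 to 10, adjusted p = 1.08e-07). As a description, Acsm5 was 9.9-fold higher in WT liver (6.93 to 14.1) and 22.6-fold higher in KO liver (16.8 to 30.4). These sizes depend on the scaling. With plain library sizes the log2 difference of fat minus liver was -1.44 in WT and -1.99 in KO for Acsm3, against -2.36 and -2.89 with TMM. For Acsm5 it was -2.38 and -3.61, against -3.31 and -4.50. For both genes every liver library lay above every fat library on the TMM scale, as held for 30.3% of genes in WT and 31.1% in KO mice. Of all genes, 74.3% in WT and 74.4% in KO were called in either direction. Of 14739 genes tested, 35.9% were called lower in fat in WT mice, and 35.6% of 14603 in KO mice. A fall from liver to fat at least as large as that of Acsm5 was found for 6.75% of genes in WT and 4.86% in KO.

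Acsm1 passed the filter of the tissue contrasts only through its liver counts and therefore had to differ. Its fitted ratio of liver to fat was 1290 in WT (503 to 3305) and 1191 in KO (363 to 3907), given as a description. It rests on the libraries with albumin transcripts: the log2 difference of fat minus liver went from -10.33 to -12.05 without WT fat 4, and from -10.22 to -12.47 without KO fat 3. Acsm2 did not pass, with 57 summed counts in WT liver against 2 in WT fat, and 54 in KO liver against 0 in KO fat.

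The balance of Acsm5 to Acsm3 is given as a description, since it uses the Acsm5 values that chose the genes and was computed after seeing them. Per length, the ratio of Acsm5 to Acsm3 was 0.489, 0.498, 0.411, 0.611 and 0.673 in WT fat 1 to 5. In WT liver 1 to 5 it was 1.14, 1.04, 0.933, 1.08 and 1.04. The groups were separate, with Acsm3 ahead in fat and ratios on both sides of 1 in liver. KO fat had 0.42, 0.321, 0.218, 0.479 and 0.334, and KO liver 0.696, 1.39, 1.12, 1.1 and 0.981, also separate. With merged exons as the length, the ratio was 0.483 to 0.791 in WT fat and 1.1 to 1.34 in WT liver, and Acsm5 was ahead in all 5 WT liver libraries and in 4 of 5 of KO liver. Within fat, the KO and WT ranges of the ratio overlapped.

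Part of Acsm3 is shared with Eri2, an exonuclease gene on the opposite strand. Of the 50-base windows of Acsm3 transcripts, 34% occur in Eri2, and 0 occur in other genes on the strand of Acsm3. The deposited counts of Acsm3 and of Eri2 were fractional in all 20 libraries, while their sum was whole in all 20. Eri2 came to between 20.3% and 45.7% of Acsm3 in fat and between 4.77% and 7.77% in liver, so Acsm3 in fat is the less certain. Acsm3 and Eri2 together were at 42.6 ± 9.43 CPM in KO fat and 55.6 ± 12.8 in WT fat, a ratio of 0.767 against 0.717 for the means of Acsm3 alone. In liver they were at 256 ± 31.4 and 241 ± 13. The counts of Acsm1, Acsm2 and Acsm5 were whole in every library. Acsm5 shares 1.58% of its windows with Pdilt on the opposite strand, which was at 0.0378 ± 0.0604 CPM in WT fat.

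Within a tissue, the members did not vary together to an extent that passed correction over the 4 pairs computed. With each genotype centred on its mean, Acsm3 and Acsm5 in the 10 fat libraries had Pearson's r of 0.62 (permutation p = 0.0703, adjusted 0.141) and Spearman's rho of 0.50 (p = 0.162, adjusted 0.325). The value of r was 0.61 without WT fat 4 and KO fat 3. Acsm1 and Acsm3 in the 10 liver libraries had r of -0.63 (permutation p = 0.0473, adjusted 0.141) and rho of -0.56 (p = 0.128, adjusted 0.325), and r fell to -0.49 without WT liver 5 and KO liver 2. For Acsm5 in liver, r was 0.092 with Acsm1 and -0.16 with Acsm3 (adjusted permutation p = 0.811 for both). In both of these pairs the sign differed between WT and KO taken alone, with 5 libraries each, too few to give a coefficient.

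The genes whose profile over the 10 fat libraries was nearest to that of Acsm5 were Smim5, Slc39a8, Smkr-ps, Gm454 and Penk. Likeness is the root mean square of the difference between log2 CPM profiles, each centred on its own mean, over 13615 genes. It was 0.27 for Smim5, which encodes a small membrane protein, 0.29 for Slc39a8, a zinc and manganese importer, and 0.32 for Penk, the precursor of enkephalins. The profile of Acsm5 itself had a root mean square of 0.68, and the median gene lay 0.728 away. Slc39a8 was at 24.3 ± 11.4 CPM in WT fat and 14.8 ± 3.97 in KO fat, and Penk at 25.2 ± 7.26 and 13.1 ± 3.02, values that follow from choosing genes for their likeness. WT fat 4 was the highest library for 4 of these 5 genes and WT fat 5 for Penk. Acsm3 came at place 55, at 0.45. In liver the nearest were Srgap2 (0.08), the bilirubin conjugating enzyme Ugt1a1 (0.084), the splicing factor Srsf5, Inpp5e and BC024386, with the median gene at 0.282. Acsm3 (0.24) and Acsm1 (0.25) were far down that order.

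**Figure D4:**
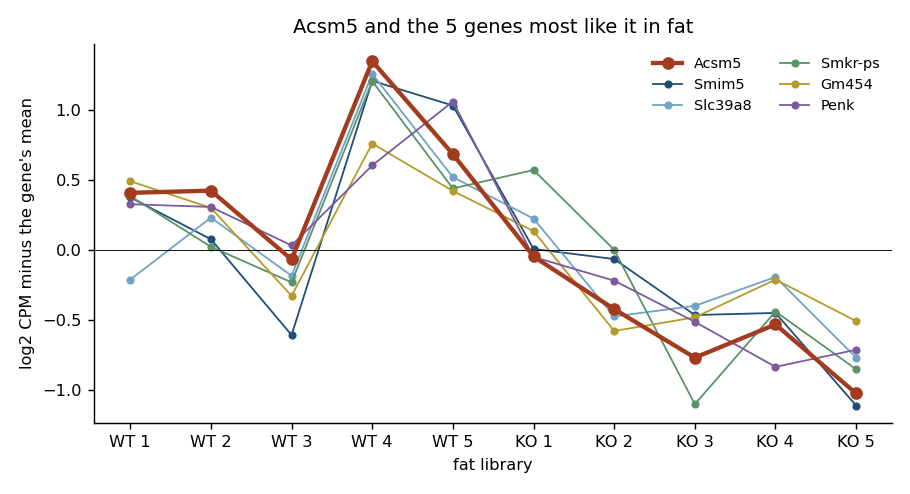
Profiles of Acsm5 and the 5 genes nearest to it over the 10 fat libraries, as log2 CPM minus each gene's own mean; lines join libraries only to guide the eye. WT fat 4 is highest for Acsm5 and all of the 5 but Penk, whose highest library is WT fat 5.

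Genes that act before, beside and after the Acsm enzymes were taken as 5 lists. In fat, none of their 52 tested members was called by edgeR between KO and WT, as for all genes, and 3 had an unadjusted p under 0.05, which 7.13% of all genes had. Of the other acyl-CoA synthetases, 7 of 16 had a higher and 9 a lower KO value, with a median log2 difference of -0.061 (all genes 0.00073). Slc27a1, a fatty acid transport protein with synthetase activity, had the largest difference, with 239 to 362 CPM in KO fat and 407 to 839.9 in WT fat. The ranges were separate and the ratio was 0.596, while edgeR gave an adjusted p of 0.687. Acsl1, the main long-chain synthetase of adipocytes, was at 1752 ± 304 and 2165 ± 649 CPM. Acss2, which activates acetate, was at 309.9 ± 161 and 204 ± 128, and Slc27a6, a fatty acid transport protein, at 0.87 ± 0.299 and 1.24 ± 0.458.

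Of 18 genes listed for mitochondrial oxidation of medium and short chains, 15 had a lower and 3 a higher KO value in fat. The median log2 difference was -0.08. The list is broader than its name, since Crot is peroxisomal and Hadha, Hadhb and Slc25a20 serve long chains. Etfb, a subunit of the electron carrier for acyl-CoA dehydrogenases, had a ratio of 0.882, the isomerase Eci2 0.888 and Crat, carnitine acetyltransferase, 0.892. Acadm, the medium-chain acyl-CoA dehydrogenase that takes the products of Acsm enzymes, was at 327 ± 24.4 CPM in KO and 339 ± 32.3 in WT fat. Hadhb and Hadh, later enzymes of the cycle, had ratios of 1 and 0.958. Among acyl-CoA thioesterases, which split the thioester again, 5 of 10 had a higher and 5 a lower KO value. The ratio was 1.83 for Acot1 (3.54 ± 3.89 against 1.93 ± 1.07 CPM), 1.23 for Acot8, 1.16 for Acot2, 0.951 for Acot9, 0.917 for Acot7 and 0.945 for Acot13. Genes of mitochondrial octanoate and lipoate synthesis had 3 of 8 higher, with ratios of 1.2 for Ndufab1, the acyl carrier protein, 0.909 for Mecr and 0.928 for Lias. In liver, 0 of 57 tested members of the lists were called by edgeR and 5 had an unadjusted p under 0.05, against 13.1% of all genes.

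Between tissues, Crat was called higher in WT fat and 15 of the other oxidation genes lower, with a median log2 difference of fat minus liver of -0.73 on the TMM scale (all genes 0.043). This direction depends on the scaling: with plain library sizes 9 of the 18 were called higher and 5 lower, with a median of 0.20, and all genes then had a median of 0.97. Acadm was at 468 ± 18.2 CPM in WT liver, a log2 difference of -0.45 from fat for which edgeR gave an adjusted p of 0.00312. With upper-quartile scaling this was -0.16 (adjusted p = 0.21 by edgeR), and with plain library sizes 0.47, the opposite direction. The other synthetases had 8 of 16 called lower and 5 higher in WT fat, and Slc27a1 was 39.7-fold higher in fat (adjusted p = 7.52e-09 by edgeR). Of the thioesterases, 8 of 13 were called lower and 2 higher, and of the octanoate and lipoate genes 3 of 8 lower and 1 higher. With plain library sizes these last had 7 called higher and 0 lower. The background on the TMM scale was 35.9% called lower and 38.4% called higher in WT fat, and 35.6% and 38.8% in KO fat. Among the called genes, 1 synthetase, 3 thioesterases and all 3 of glycine conjugation had a mean under 1 CPM in WT fat. Like Acsm1, these passed the filter through liver alone and had to differ. Among them was Glyat, glycine N-acyltransferase, at 296 ± 31 CPM in WT liver and 0.25 ± 0.353 in WT fat. No difference between lists was tested.

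**Figure D5:**
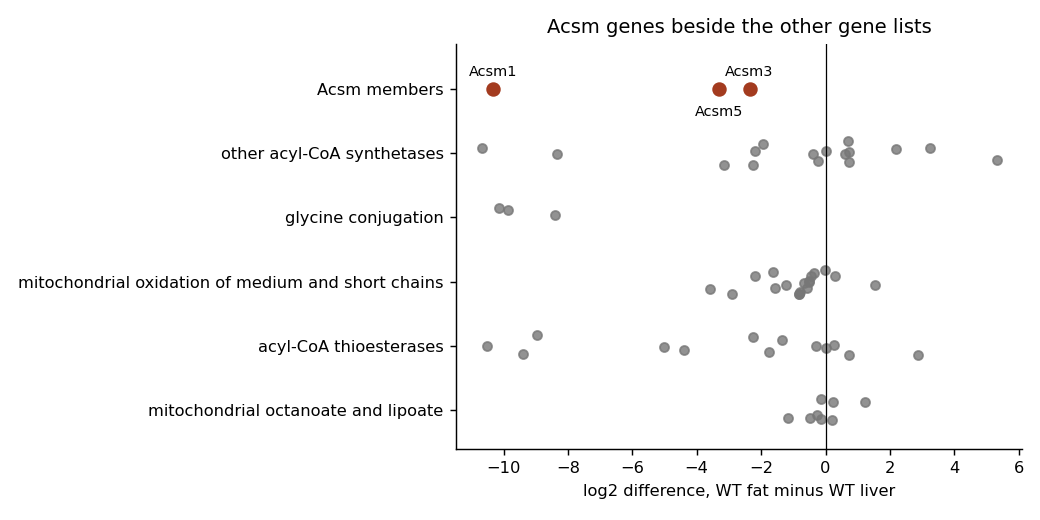
Log2 difference of WT fat minus WT liver on the horizontal axis for each tested gene, by list; red points are the Acsm genes that passed the filter and grey points members of the other lists, spread vertically for legibility. The Acsm genes lie at -10.33, -3.31 and -2.36, to the left of the line at 0, and the other synthetases lie on both sides, all on the TMM scale.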

How the data were processed

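The deposited table holds expected counts per gene, not normalized, with 1 column per library. Per the labels' protocols, the library kit was TruSeq Stranded mRNA. Trim Galore 0.2.8, STAR 2.4.0d, RSEM 1.2.12, DESeq2 and build GRCm38 are named in the submitters' processing notes. The annotation release and the strand setting were not given in the sources used here. Symbols, spans and lengths came from GENCODE M21 on GRCm38, which matched 48058 of 48440 IDs. Expected counts were rounded, filtered (filterByExpr, minimum count 10, total 15), scaled by TMM and tested in R 4.3.3 with the quasi-likelihood test of edgeR 4.0.16 (limma 3.58.1 for voom), with Benjamini-Hochberg adjustment over all genes and calls at adjusted p under 0.05. Marker levels used plain library sizes. Intervals of fitted ratios are 95%. No library pair agreed within counting noise (lowest chi-square per degree of freedom 15.9). Nothing in the labels says that the 2 tissues of a number came from 1 mouse. P-values measure the spread between these libraries. The steps were tested on simulated counts.

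The members, lists, motifs and tests were chosen with earlier results of these data known. Genes were named by list: any called gene, the 3 with the largest KO to WT difference in fat at 1 CPM or more, and the 3 highest in fat. Of the many called between tissues only a few are named, and these, like the marker genes that stood apart, were picked after their values were seen. The ratio of Acsm5 to Acsm3, the lists under other scalings, the levels per adipocyte transcript, the reckoning with Alb and the sum with Eri2 were added after seeing the data. Alternatives were other scaling, filters and tools (DESeq2 1.42.0, limma-voom), the replicate block, all 20 libraries in 1 fit and each library left out. Of 65 list symbols, 64 were found. The 13 marker lists are adipocyte, hepatocyte, stromal, mesothelial, macrophage, endothelial, skeletal muscle, kidney tubule, bladder epithelium, uterus and oviduct epithelium, epididymis and testis, pancreas and erythroid.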

Additional observations from a re-analysis of the deposited data

Results flagged for a closer look

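Of 15 sets of 5 libraries examined for 1 library far from the others, 5 held one. The sets share libraries and some hold counts near 0, so this number is not set against a rate of chance. Acsm1 stood out at 1.25 CPM in WT fat 4 and at 1.43 CPM in KO fat 3, the fat libraries with hepatocyte transcripts. Acsm2 stood out at 0.0923 CPM in WT fat 4, which is 2 counts with 0 in the other WT fat libraries. Acsm3 stood out at 64.2 CPM in WT fat 4, where Acsm5 was also highest. Acsm5 stood out at 169 CPM in KO liver 1, the only low outlier, where Acsm3 was the highest of the liver libraries at 269 CPM.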

How the results depend on the processing

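Acsm3 and Acsm5 kept their direction under all alternatives run in fat and between tissues. The log2 KO minus WT difference in fat ran from -1.31 to -0.85 for Acsm5 and from -0.60 to -0.31 for Acsm3. In liver it ran from -0.14 to 0.029 for Acsm1 and from -0.63 to 0.35 for Acsm2, so these have no settled sign. The tissue call of Acsm3 held throughout in both genotypes. With the replicate block, which matches the tissues by number, edgeR gave it an adjusted p of 3.58e-06 in WT and 9.29e-06 in KO. With plain library sizes Acadm turned to 0.47 in WT and 0.38 in KO and Hadh to 0.09 and 0.015, and 5 oxidation genes were called lower in fat in each genotype, against 15. Upper-quartile scaling moved the median gene to 0.34 and plain library sizes to 0.97 in WT (0.33 and 0.95 in KO), and the share of calls higher in fat from 51.7% to 65.1% and 82.5% (KO 52.1%, 64.4% and 82.6%). Counts of called genes moved more. With DESeq2, 13 genes were called in fat, 137 in liver and 2 in the difference of KO effects. In liver, 15 were called with no filter on low counts, 2 with all libraries in 1 fit, 3 without the libraries with skeletal muscle transcripts (WT liver 2 and WT liver 4), and 0 to 3 with each library left out. The count fell to 0 without WT liver 3 or 5 and rose to 2 or 3 without WT liver 1, 2 or 4 or KO liver 3 or 5. Same-numbered libraries did not deviate together in all pairs, with r from -0.17 to 0.51 in fat and from -0.23 to 0.25 in liver. In fat, r was over 0.1 for 3 of 5 pairs of KO and WT, and 3 best matches were of the own number. In liver each of these counts was 1 of 5. Between fat and liver, r ran from -0.015 to 0.17 in WT and from -0.014 to 0.051 in KO. There, 2 of 5 best matches in WT and 1 of 5 in KO were of the own number. Some marker sums in fat peaked in the same number in WT and KO. Skeletal muscle markers did so in number 2 (633 and 497 CPM). Erythroid (3137 and 1286), stromal (10484 and 6703) and macrophage markers (1460 and 1081) did so in number 3. Hepatocyte, mesothelial, kidney tubule, bladder epithelium, and uterus and oviduct epithelium markers peaked in different numbers. The numbers were not taken to pair the libraries, but whether libraries of a number share a factor was not tested. With the replicate block 3 genes were called in liver and 0 in fat, and Acsm5 in fat was at -1.12. The causes of these moves were not tested. Depth limits Acsm1 in fat and Acsm2 in both tissues.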

Other observations

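Within 300 kb of the members lie 22 other genes. In fat 6 of them were tested between KO and WT and in liver 8, with 0 called by edgeR in either (0% and 0.00752% of all genes were called). Between tissues in WT mice, Pdilt, Gm26967 and Gm19950 had means under 1 CPM in fat and Dnah3 under 1 CPM in liver, so that each passed the filter through 1 tissue alone and had to differ. The other called neighbours were Thumpd1, Rexo5, Dcun1d3 and Lyrm1, higher in fat on the TMM scale, where 38.4% of all genes were called higher. In KO mice Rexo5, Dcun1d3 and Lyrm1 were also called higher in fat. Thumpd1 was not called there (log2 difference 0.04, adjusted p = 0.63 by edgeR). Eri2 was called lower in KO fat (-0.45, adjusted p = 0.00743 by edgeR), as were 35.6% of all genes. All were named after their values were seen. Gm19950, annotated as antisense within Acsm1, was at 23.5 ± 3.67 CPM in WT liver and 22.5 ± 4.39 in KO liver (SD, n = 5). Of the 50-base windows of Acsm1, 0 occur in other genes on either strand, and its counts were whole in all 20 libraries. Acsm3 and Eri2, on opposite strands, had fractional counts with a whole sum, so reads were shared across strands there. No such split was seen in the counts of Acsm1. The strand setting of the counting was not given, and the strand that the Gm19950 counts came from was not tested. Rexo5, next to Acsm3, had a log2 difference of 1.2 toward fat in WT (adjusted p = 9.18e-05 by edgeR) and 0.84 in KO (0.00109).

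The 13 marker lists held further differences between libraries. In fat, mesothelial markers had lower means in KO for 4 of 4 genes (76.4 to 181 CPM summed against 81 to 257). Skeletal muscle markers had lower means in KO for 5 of 5 (15.1 to 497 against 14.7 to 633). Their sum was highest in WT fat 2 and KO fat 2, so these means rest on few libraries. Endothelial markers had higher means in KO for 4 of 4 (522 to 1138 against 519 to 806). Their sums had medians of 646 in KO and 649 in WT, and the highest was that of KO fat 5. In fat, epididymis and testis markers summed to 0. Pancreas markers summed to at most 22.9 CPM, most of which is Cela1 (at most 22.8), with Prss1 at 0. Uterus and oviduct epithelium markers summed to at most 182 CPM, in KO fat 2, most of which is Krt19 (at most 179.7). Hepatocyte markers in fat were lower in KO for 5 of 10 genes, with sums of 1471 to 2287 against 2407 to 5084 CPM, most of which is Cyp2e1 (1430 to 1983 against 2312 to 4430). Kidney tubule markers in fat summed to 2.72 to 15.7 CPM, with Lrp2 at 2.41 to 15.7.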
